A study of Homo sapiens with 18 samples.

Results

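Respiratory complex I is built from products of the nuclear genes whose symbols begin with NDUF and from a few mitochondrially encoded ND proteins, and the NDUF transcripts were examined here in HUDEP1, a human line of immortalised erythroid progenitors. Of 13358 genes in the deposited table, 48 had such a symbol, and 47 reached a value of 1 in 3 or more of the 18 libraries. These 47 members were 37 subunits of the complex, 8 assembly factors (NDUFAF1 to NDUFAF8), NDUFA4, and NDUFC2-KCTD14, a read-through of NDUFC2 into its neighbour. The gene that did not pass was NDUFA4L2, a NDUFA4 paralogue known as a hypoxia target, which lay between 0 and 0.94 in every library.

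The GATA1s clones 1D5 and 1KI9 carry the short isoform of the transcription factor GATA1, which is missing the protein's N-terminal end, and clone FL (GATA1FL) carries the full-length form. Each clone was sampled at day 4 of differentiation and in expansion, with 3 libraries in each of the 6 groups. The day-4 cells were in IMDM with 2% FBS, 3% human AB serum, 10 µg/mL insulin, 3 U/mL heparin and 1 mg/mL holo-transferrin, and the expansion cells in SFEM II with 1 µM dexamethasone. Both media held doxycycline at 1 µg/mL, stem cell factor at 50 ng/mL and erythropoietin at 3 U/mL. The full-length genotype is represented by 1 clone, so genotype and clone cannot be told apart in any comparison with FL. The labels do not say that replicates came from separate cultures, and the p-values therefore measure the spread between libraries, which may be technical.

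Complex I oxidises NADH, passes the electrons through a flavin and a chain of iron-sulfur clusters to coenzyme Q, and pumps protons across the inner mitochondrial membrane. Its matrix arm consists of the N module, where NADH is bound, and the Q module, where coenzyme Q is reduced. Its membrane arm is assembled from sub-modules named after the ND1, ND2, ND4 and ND5 proteins, and assembly factors hold the intermediates together and leave before the complex is finished. Erythroid precursors use mitochondria for heme synthesis and lose them as they mature.

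Expansion values were TPM, transcript levels per length scaled to a fixed library total. Day-4 values were not plain TPM, because the 3 FL libraries summed to more than 1000000 (the highest to 1081251). No label or header states their scaling. Read depth is unknown, and every difference between the conditions also spans this difference in scale. Differences are on the scale of log2(value + 1) with their SE, and a member was called when limma's p, adjusted by Benjamini-Hochberg over all genes tested, was under 0.05. Globin transcripts, which mark erythroid maturation, made up 19.8% ± 0.668 of the listed total in 1D5, 12.9% ± 0.435 in 1KI9 and 38.8% ± 0.587 in FL at day 4, against 5.30% ± 1.33, 4.23% ± 0.272 and 7.30% ± 2.88 in the same order in expansion (SD, n = 3). Because globin and mitochondrially encoded transcripts take different shares of each library, each result was also computed with median-of-ratios scaling, after removal of globin and mitochondrially encoded genes, and after scaling to the summed NDUF members. In bulk RNA, fewer cells of a type and less RNA per cell cannot be told apart.

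The members spanned a wide range of levels. NDUFB9, an LYR-motif subunit of the ND5 module, had the highest mean over all 18 libraries, with 397, 475 and 416 in 1D5, 425, 439 and 411 in 1KI9 and 376, 367 and 374 in FL at day 4, and 608, 640.4 and 625 in 1D5, 584, 609.5 and 638 in 1KI9 and 578, 637 and 653 in FL in expansion. NDUFS5 and NDUFA13, membrane-arm subunits, came next. The order of the first 2 depended on the group, since NDUFS5 had 774, 732 and 740.5 in 1KI9 expansion, above NDUFB9 in every library, and 607, 608 and 649 in 1D5 expansion, where the libraries of both genes overlapped. Levels on this scale are per transcript length. The lowest were NDUFC2-KCTD14, at 0.62 to 4.08 over all libraries, and the assembly factors NDUFAF7 and NDUFAF5, a methyltransferase and a hydroxylase that each modify a subunit of the complex. NDUFAF7 lay between 5.90 and 18.2 over all libraries and NDUFAF5 between 7.50 and 25.7.

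Summed over the 47 members, NDUF transcripts were lower at day 4 than in expansion in every clone. The sum was 4821 ± 338 in 1D5, 4888 ± 185 in 1KI9 and 4049 ± 64.9 in FL at day 4, against 7475 ± 160, 7492 ± 199 and 7235 ± 236 in the same order in expansion (SD, n = 3). As a share of the total without globin and mitochondrially encoded genes, the members held 0.842% ± 0.0369 in 1D5, 0.851% ± 0.0186 in 1KI9 and 0.729% ± 0.00556 in FL at day 4, against 1.06% ± 0.0126, 1.02% ± 0.0140 and 0.996% ± 0.0153 in expansion. The day-4 and expansion libraries did not overlap in any clone on either measure. An exact permutation test of 3 against 3 libraries cannot give a two-sided p under 0.1, so these sums carry no test that could pass 0.05.

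**Figure D1:**
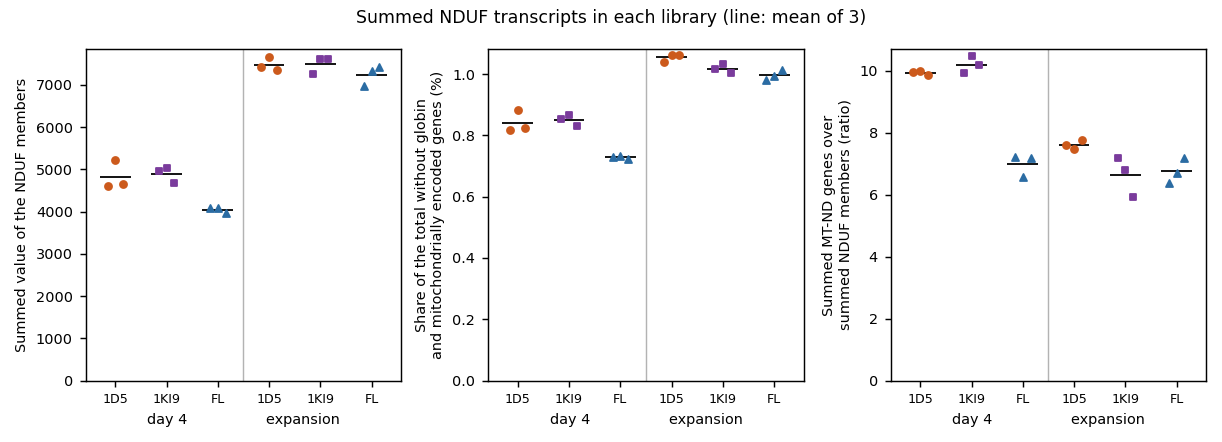
Summed NDUF transcripts in each of the 18 libraries (points; line, mean of 3), as the summed value, as a percentage of the listed total without globin and mitochondrially encoded genes, and as the ratio of summed mitochondrially encoded ND genes to the summed NDUF members. Day-4 libraries lie below expansion libraries on the first 2 panels in every clone, and in the ratio the 1D5 and 1KI9 day-4 libraries, at 9.86 to 10.5, lie above all FL libraries, at 6.38 to 7.21.

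Most members fell at day 4. In 1D5, 39 of 47 fell and 0 rose, where 47.0% of all genes tested fell, 31.9% rose and 78.9% did one or the other. In 1KI9, 41 fell and 0 rose, where 52.2% of all genes fell, 22.2% rose and 74.4% did one or the other. In FL, 42 fell and 1 rose, where 57.2% of all genes fell, 26.5% rose and 83.7% did one or the other. The median log2 difference of the members was -0.65 in 1D5, -0.59 in 1KI9 and -0.89 in FL, and that of all genes was -0.15, -0.25 and -0.38 in the same order. The members thus lay 0.51 below the all-gene median in 1D5, 0.34 below it in 1KI9 and 0.51 below it in FL. After median-of-ratios scaling the split of called members was 3 higher and 36 lower in 1D5, 5 and 29 in 1KI9, and 7 and 35 in FL, with members 0.48, 0.31 and 0.44 below the all-gene median. Without globin and mitochondrially encoded genes it was 7 higher and 34 lower in 1D5, 6 and 27 in 1KI9, and 7 and 37 in FL, with members 0.47, 0.31 and 0.46 below that median. Scaled to the summed NDUF members, which shows only how members moved relative to one another, 14 were higher and 19 lower in 1D5, 17 and 20 in 1KI9, and 14 and 22 in FL.

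**Figure D2:**
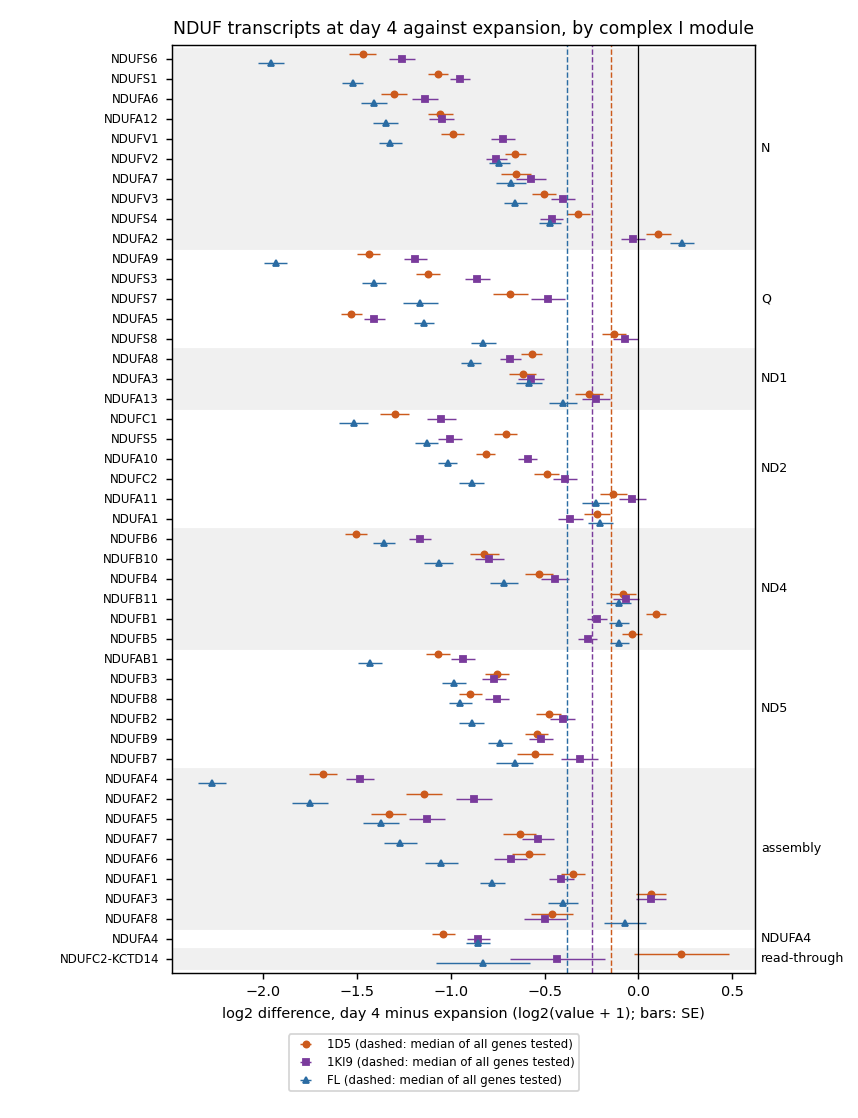
Log2 difference, day 4 minus expansion, of 46 members in 1D5, 1KI9 and FL (points with SE bars; dashed lines, median of all genes tested), grouped by module. NDUFAF4 shows the lowest value, -2.27 in FL, while NDUFA2 and NDUFB11 lie near 0. The NDUFB11 differences are below 0 here in every clone and above 0 without globin and mitochondrially encoded genes.

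The N module, which takes electrons from NADH, fell in 9 of 10 members in each clone. Of all genes tested, 47.0% fell in 1D5, 52.2% in 1KI9 and 57.2% in FL. NDUFS6, a zinc-binding accessory subunit, had 43.6, 45.0 and 41.5 in 1D5, 42.4, 46.5 and 45.8 in 1KI9 and 32.2, 33.7 and 36.5 in FL at day 4, against 118, 125 and 124 in 1D5, 106, 114 and 107 in 1KI9 and 121, 150.2 and 137 in FL in expansion. The highest day-4 library was far below the lowest expansion library in every clone. The log2 difference was -1.47 ± 0.07, adjusted p = 1.73e-12 in 1D5, -1.26 ± 0.07, adjusted p = 2.5e-11 in 1KI9 and -1.96 ± 0.07, adjusted p = 2.11e-14 in FL. NDUFS1, the core subunit that carries most of the module's iron-sulfur clusters, had 42.9, 40.4 and 43.6 in 1D5, 45.1, 45.4 and 47.8 in 1KI9 and 32.7, 31.2 and 32.3 in FL at day 4, against 88.4, 92.5 and 88.5 in 1D5, 84.8, 90.4 and 95.2 in 1KI9 and 90.7, 99.7 and 92.1 in FL in expansion. It fell by 1.07 in 1D5, 0.95 in 1KI9 and 1.52 in FL on the log2 scale, with no overlap between the conditions. The flavin-binding core subunit NDUFV1 fell by 0.99 in 1D5, 0.72 in 1KI9 and 1.32 in FL. Its iron-sulfur partner NDUFV2 fell by 0.66, 0.76 and 0.74 in the same order. With scaling to the summed members NDUFV1 was not called in 1KI9 and NDUFV2 not in 1D5 or FL, whereas NDUFS6 and NDUFS1 were called lower in every clone under all 4 scalings.

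NDUFA2, an N-module accessory subunit with a thioredoxin-like fold, was the exception. Its values were 84.4, 102 and 83.4 in 1D5, 87.7, 88.8 and 84.7 in 1KI9 and 88.6, 88.0 and 86.1 in FL at day 4, against 81.9, 87.3 and 80.0 in 1D5, 89.3, 91.9 and 85.4 in 1KI9 and 76.9, 71.3 and 74.9 in FL in expansion. In FL every day-4 library was above every expansion library, while the conditions overlapped in both GATA1s clones. The log2 difference was 0.23 ± 0.07, adjusted p = 0.00307 in FL, the only rise among the 47 members on the deposited scale, and it stayed positive and called under all 4 scalings (0.23 to 1.06). In 1D5 and 1KI9 the difference was 0.11 and -0.03, which did not pass on the deposited scale but was called higher under the other scalings. NDUFA2 was chosen after its values were seen.

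Of the 5 Q-module members described here, 4 fell in each GATA1s clone and 5 in FL. The all-gene shares that fell were 47.0% in 1D5, 52.2% in 1KI9 and 57.2% in FL. NDUFA9, an accessory subunit at the junction of the arms, had 47.2, 53.7 and 50.1 in 1D5, 54.5, 58.8 and 56.0 in 1KI9 and 43.2, 38.1 and 41.7 in FL at day 4, against 144, 136 and 134 in 1D5, 125, 135 and 131 in 1KI9 and 151, 165 and 163 in FL in expansion. Even the highest day-4 library, in 1KI9, was far under the lowest expansion library of any clone. The log2 difference was -1.44 ± 0.06, adjusted p = 4.1e-13 in 1D5, -1.19 ± 0.06, adjusted p = 9.91e-12 in 1KI9 and -1.94 ± 0.06, adjusted p = 5.51e-15 in FL. NDUFA5, another accessory subunit, had 54.3, 55.0 and 54.9 in 1D5, 61.5, 64.5 and 62.6 in 1KI9 and 58.4, 62.0 and 59.9 in FL at day 4, against 162, 154 and 165 in 1D5, 168, 171 and 166 in 1KI9 and 122, 139 and 142 in FL in expansion. It fell more in the GATA1s clones, by 1.53 in 1D5 and 1.41 in 1KI9, than in FL, by 1.14, as the interactions given further on show. The core subunits NDUFS3 and NDUFS7 fell by 1.12 and 0.68 in 1D5, 0.86 and 0.48 in 1KI9, and 1.41 and 1.16 in FL. The fall of NDUFS7 in 1KI9 was not called with median-of-ratios scaling (-0.19) or without globin and mitochondrially encoded genes (-0.13). Scaled to the summed members, NDUFS7 was not called in 1D5 or in 1KI9 (0.12).

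The membrane arm was less uniform. All 6 members of the ND5 module and all 3 of the ND1 module fell in every clone, and 5 of 6 in the ND2 module fell in 1D5 and in 1KI9, with 6 of 6 in FL. In the ND4 module 3 of 6 fell in 1D5, 5 of 6 in 1KI9 and 3 of 6 in FL. The share of all genes that fell was 47.0%, 52.2% and 57.2% in the same order. The ND4 median lay 0.16, 0.11 and 0.03 below the all-gene median in those clones. With median-of-ratios scaling it was 0.04 above that median in FL. On the summed-member scale the medians of the N, Q and ND5 modules stayed below 0 in every clone, those of the ND1 and ND4 modules were above 0 in every clone, and that of the ND2 module was above 0 in both GATA1s clones. NDUFB6 carried the largest fall of the ND4 module, by 1.51 in 1D5, 1.16 in 1KI9 and 1.36 in FL, under all 4 scalings. NDUFB11, an X-linked subunit chosen after its values were seen, had 54.6, 64.9 and 55.7 in 1D5, 58.7, 61.5 and 53.9 in 1KI9 and 57.2, 59.6 and 55.9 in FL at day 4, against 61.3, 63.7 and 60.3 in 1D5, 56.4, 64.1 and 62.0 in 1KI9 and 62.9, 60.4 and 62.8 in FL in expansion. The conditions overlapped in 1D5 and 1KI9, and its differences of -0.08, -0.07 and -0.11 in 1D5, 1KI9 and FL did not pass the test on the deposited scale. Without globin and mitochondrially encoded genes they were 0.22, 0.29 and 0.28, all called higher.

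The relative weight of the modules, which 1 factor per library cannot alter, moved with them. Whether the day-4 values differ from TPM only by such a factor is unknown. The N module held 15.5% ± 0.119 of the summed NDUF value in 1D5, 15.4% ± 0.295 in 1KI9 and 15.6% ± 0.203 in FL at day 4, against 17.8% ± 0.0951, 17.2% ± 0.0247 and 18.02% ± 0.281 in expansion (SD, n = 3). The Q module held 8.71% ± 0.284, 9.35% ± 0.0434 and 8.43% ± 0.0861 at day 4, against 10.6% ± 0.317, 10.5% ± 0.169 and 10.9% ± 0.164 in expansion. The ND4 module held 15.7% ± 0.0235, 15.3% ± 0.0761 and 15.6% ± 0.490 at day 4, against 12.8% ± 0.159, 13.4% ± 0.291 and 12.1% ± 0.289 in expansion. For all 3 modules the day-4 and expansion libraries of each clone did not overlap.

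**Figure D3:**
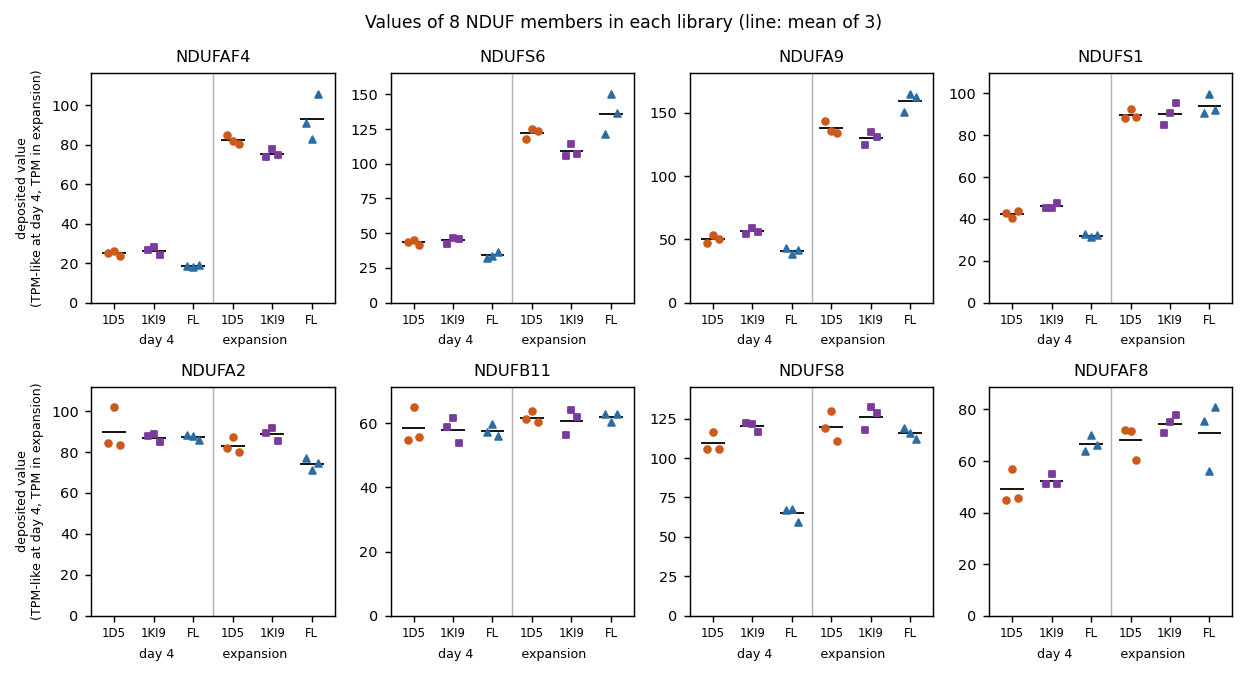
Deposited values of 8 members in each library (points; line, mean of 3), day-4 groups on the left of each panel and expansion groups on the right. NDUFAF4, NDUFS6, NDUFA9 and NDUFS1 are far lower at day 4 in every clone, the day-4 and expansion libraries of NDUFA2 and NDUFB11 lie close together, NDUFS8 is low only in the 3 FL day-4 libraries, at 59.7 to 67.6, and NDUFAF8 at day 4 is lowest in 1D5 and 1KI9.

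The assembly factors included the member with the largest fall of all. NDUFAF4, which with NDUFAF3 holds the Q-module intermediate, had 25.2, 26.2 and 23.5 in 1D5, 26.6, 27.9 and 24.3 in 1KI9 and 18.5, 17.8 and 18.8 in FL at day 4, against 84.8, 82.0 and 80.5 in 1D5, 73.9, 77.6 and 74.5 in 1KI9 and 90.7, 83.0 and 106 in FL in expansion. The highest of all day-4 libraries held 27.9 and the lowest of all expansion libraries 73.9, both in 1KI9. The log2 difference was -1.68 ± 0.07, adjusted p = 6.01e-13 in 1D5, -1.49 ± 0.07, adjusted p = 6.3e-12 in 1KI9 and -2.27 ± 0.07, adjusted p = 6.94e-15 in FL. Its partner NDUFAF3 did not follow it: the values were 56.5, 65.9 and 57.7 in 1D5, 58.3, 60.8 and 54.7 in 1KI9 and 44.9, 41.6 and 38.9 in FL at day 4, against 56.8, 54.0 and 61.0 in 1D5, 50.0, 58.6 and 57.7 in 1KI9 and 60.0, 53.1 and 53.6 in FL in expansion. The conditions overlapped in 1D5 and 1KI9, with differences of 0.07 and 0.07 that did not pass, and in FL it fell by 0.40. With median-of-ratios scaling the FL difference of NDUFAF3 was 0.06, and scaled to the summed members it was 0.42.

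NDUFAF2, which docks the N module and gives way to NDUFA12, had 26.6, 34.1 and 27.6 in 1D5, 31.4, 34.9 and 30.5 in 1KI9 and 20.2, 18.6 and 22.1 in FL at day 4, against 69.0, 64.9 and 63.9 in 1D5, 58.2, 63.7 and 58.2 in 1KI9 and 61.1, 75.1 and 76.6 in FL in expansion. It fell by 1.14 in 1D5, 0.88 in 1KI9 and 1.75 in FL, without overlap between the conditions. NDUFAF5 fell by 1.33, 1.13 and 1.37 in the same order, NDUFAF6, a factor of the ND1 module, by 0.59, 0.68 and 1.05, NDUFAF7 by 0.63, 0.53 and 1.27, and NDUFAF1, a membrane-arm factor, by 0.35, 0.41 and 0.78. NDUFAF8, which stabilises NDUFAF5, fell by 0.46 in 1D5 and 0.50 in 1KI9, while its difference of -0.07 in FL did not pass and was 0.40, called higher, with median-of-ratios scaling. Scaled to the summed members, the day-4 differences of NDUFAF1 were above 0 in all 3 clones (0.26, 0.18 and 0.02), and so were those of NDUFAF8 (0.16, 0.11 and 0.76). The falls of NDUFAF1 and NDUFAF8 in the GATA1s clones were also not called without globin and mitochondrially encoded genes. On the summed-member scale NDUFAF6 and NDUFAF7 were not called in either GATA1s clone (0.02 and -0.05 in 1D5, -0.09 and 0.04 in 1KI9). NDUFA4, which is now placed in complex IV, fell by 1.04 in 1D5, 0.85 in 1KI9 and 0.86 in FL, the last not called when scaled to the summed members.

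Promoter sequence from RefSeq (GRCh38.p14, 250 bases before the start) was matched for 40 of the 47 members. NDUFB9, NDUFS5, NDUFB5, NDUFA4, NDUFC2 and NDUFAF6 were among those not matched. The letters of 5 motifs were searched on both strands. The ETS letters CCGGAA were in 11 member promoters (27.5%), against 19.3% of all 15843 coding promoters and 25.0% of those of the genes listed here. NRF1 letters, GCGCA and GCGC with 1 free base between them, were in 5 (12.5%), against 7.65% of all and 10.4% of listed promoters. The NF-Y letters CCAAT were in 9 (22.5%), against 34.5% and 34.7%. The YY1 letters AAGATGGC were in 0, against 1.39% and 1.80%. The GATA letters AGATAA or TGATAA were in 5 (12.5%), against 10.9% and 7.59%.

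Upstream stretches of 4 members are shown because NDUFAF4 fell most of all members, NDUFA9 fell most of the Q module in FL, NDUFAB1, the mitochondrial acyl carrier protein of the ND5 module, has a GATA match, and NDUFS8 differed most between GATA1s and FL at day 4 among subunits. Capitals mark matches: ETS in NDUFAF4, 147 bases before the start; NRF1 in NDUFA9, 80 bases before, on the other strand; GATA in NDUFAB1, 234 bases before; and 3 NF-Y matches in NDUFS8, 197, 136 and 83 bases before, the first on the other strand. The NDUFAB1 promoter also holds the ETS letters, in the bases next to the start that are not printed. These are letter matches and not measured binding. Distances are counted to the RefSeq start. Each stretch ends before the first annotated transcript start, which in NDUFA9, NDUFAB1 and NDUFS8 is a GENCODE start upstream of the RefSeq start. All are 5′ to 3′ on the gene's strand.
NDUFAF4 (chr6:96897892-96898141, minus strand): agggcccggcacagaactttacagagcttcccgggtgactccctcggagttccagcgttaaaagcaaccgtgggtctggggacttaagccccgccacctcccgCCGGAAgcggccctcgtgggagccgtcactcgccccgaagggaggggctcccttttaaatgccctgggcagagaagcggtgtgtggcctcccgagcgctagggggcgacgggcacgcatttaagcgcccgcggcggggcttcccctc
NDUFA9 (chr12:4648864-4649094, plus strand): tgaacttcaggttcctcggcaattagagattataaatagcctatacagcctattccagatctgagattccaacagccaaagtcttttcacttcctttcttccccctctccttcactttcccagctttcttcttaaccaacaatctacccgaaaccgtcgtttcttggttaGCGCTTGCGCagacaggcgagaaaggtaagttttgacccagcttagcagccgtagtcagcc
NDUFAB1 (chr16:23596357-23596566, minus strand): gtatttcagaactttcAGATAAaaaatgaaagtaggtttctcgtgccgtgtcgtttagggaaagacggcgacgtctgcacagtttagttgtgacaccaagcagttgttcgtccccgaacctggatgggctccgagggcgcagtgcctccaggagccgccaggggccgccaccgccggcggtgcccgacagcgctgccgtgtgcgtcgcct
NDUFS8 (chr11:68030431-68030616, plus strand): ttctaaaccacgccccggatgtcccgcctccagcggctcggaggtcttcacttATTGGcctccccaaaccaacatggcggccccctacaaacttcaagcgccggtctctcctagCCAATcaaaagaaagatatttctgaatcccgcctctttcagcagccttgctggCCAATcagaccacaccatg

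At day 4 most members were higher in the GATA1s clones than in FL on the deposited scale, and so was the average gene. In 1D5 minus FL, 34 of 47 members were higher and 2 lower, where 54.8% of all genes were higher and 16.3% lower (71.1% called). In 1KI9 minus FL, 34 were higher and 1 lower, where 58.9% of all genes were higher and 17.5% lower (76.4% called). Both comparisons use the same 3 FL libraries. The member median was 0.28 in 1D5 and 0.30 in 1KI9, beside all-gene medians of 0.26 and 0.32. With median-of-ratios scaling the member medians were -0.05 and -0.09, beside all-gene medians of -0.02 and -0.01. The split was 4 higher and 13 lower in 1D5 and 6 higher and 17 lower in 1KI9. The size of the NDUF difference between clones therefore rests on the scaling. The members differed from the all-gene median by 0.02 in 1D5 and -0.02 in 1KI9 on the deposited scale. With median-of-ratios scaling they differed from it by -0.03 and -0.08.

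Among markers of other cell types, 1 gene made up most of the sum in 4 of the 5 lists at day 4. The 6 listed of 10 monocyte and neutrophil markers summed to 329 to 351 in 1D5, 396 to 418 in 1KI9 and 43.5 to 47.1 in FL, of which CD68, a lysosomal protein of macrophages, was 319 to 343, 369 to 389 and 40.3 to 43.4. The other 5 summed to 7.60 to 9.79, 27.1 to 29.3 and 2.68 to 3.63. The 4 listed of 5 mast cell and basophil markers summed to 165 to 172, 289 to 309.8 and 49.0 to 53.5, mostly the tryptase TPSB2 at 144 to 153, 257 to 275 and 39.0 to 43.2. The erythroid markers summed to 2789 to 2853 in 1D5, 2170 to 2215 in 1KI9 and 6040 to 6160 in FL. GATA1 itself, whose isoform differs between the clones, is on that list and ran the other way, at 1033 to 1102 in 1D5, 901 to 941 in 1KI9 and 221 to 236 in FL, and without it the sums were 1751 to 1757, 1248 to 1275 and 5820 to 5924. The 3 listed of 6 megakaryocyte markers summed to 19.9 to 23.3, 16.2 to 17.7 and 4.01 to 4.46, mostly ITGB3, the 2 listed of 6 lymphocyte markers to 0.28 to 0.48, 1.19 to 1.79 and 0.22 to 0.36, and the 3 listed of 5 stromal markers to 593 to 649, 632 to 691 and 117 to 118. VIM, an intermediate filament gene, made up 99.45% to 99.92% of the stromal sum in the day-4 libraries, and the collagen genes in it summed to at most 3.51. CD14, ITGAM, FCGR3A, MPO, CPA3 and the other unlisted markers were not analysed here, and no listed marker was at 0 in all 18 libraries. Their part in the clone differences was not tested.

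**Figure D4:**
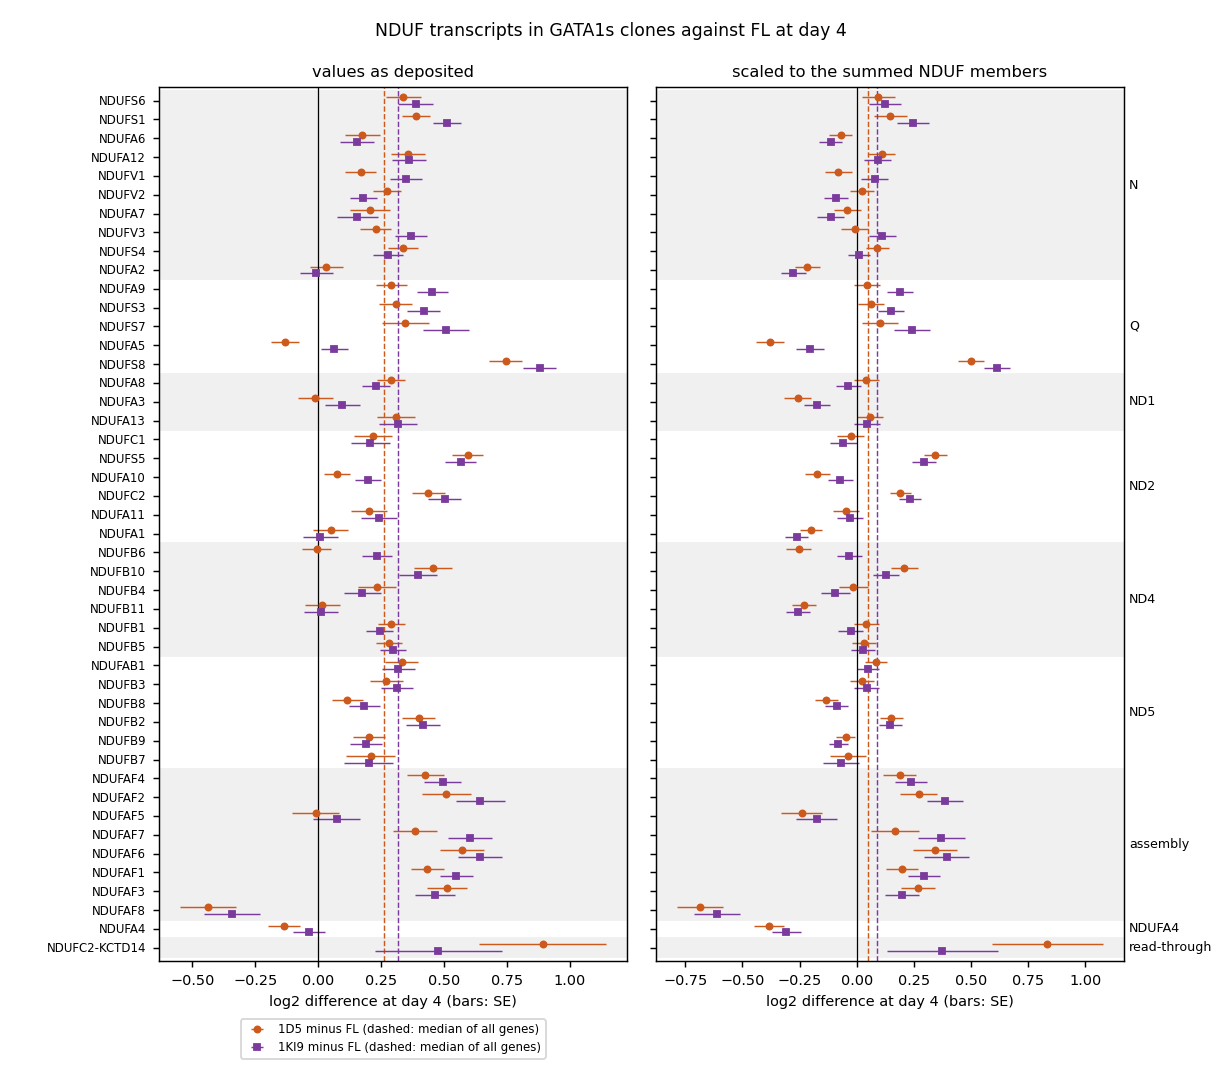
Log2 difference at day 4 of 46 members in 1D5 and 1KI9 against FL (points with SE bars; dashed lines, median of all genes), on the deposited scale (left) and after scaling to the summed NDUF members (right). The left panel shows most members above 0, around the all-gene median, a direction that turns for the median member under median-of-ratios scaling; NDUFS8 lies above and NDUFAF8 below 0 in both panels in both clones.

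NDUFS8, a core Q-module subunit that carries iron-sulfur clusters, differed most between the clones among subunits. Its day-4 values were 106, 116 and 105 in 1D5, 122, 121 and 117 in 1KI9 and 67.3, 67.6 and 59.7 in FL, and in expansion they were 119, 129.9 and 111 in 1D5, 118, 132 and 128 in 1KI9 and 119, 116 and 112 in FL. The 3 FL day-4 libraries stood well below every other library, and the GATA1s and FL libraries overlapped in expansion. The day-4 log2 difference was 0.74 ± 0.07, adjusted p = 1.8e-08 in 1D5 minus FL and 0.88 ± 0.07, adjusted p = 1.33e-09 in 1KI9 minus FL, and it stayed positive and called under all 4 scalings (0.41 to 0.74 in 1D5 and 0.50 to 0.88 in 1KI9). Between conditions NDUFS8 fell in FL (-0.83 ± 0.07, adjusted p = 1.18e-09), while the differences of -0.13 in 1D5 and -0.07 in 1KI9 did not pass. Without globin and mitochondrially encoded genes those were 0.18 and 0.29, both called higher, and scaled to the summed members they were 0.50 and 0.54, with FL not called.

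NDUFAF8 went the other way. Its day-4 values were 44.9, 57.1 and 45.8 in 1D5, 51.1, 55.0 and 51.0 in 1KI9 and 63.7, 70.0 and 66.3 in FL, and in expansion they were 72.0, 71.7 and 60.4 in 1D5, 70.7, 75.0 and 77.7 in 1KI9 and 75.5, 56.1 and 80.8 in FL. At day 4 every GATA1s library was below every FL library, while in expansion the clones overlapped and FL replicate 2 stood below the other FL libraries. The day-4 difference was -0.44 ± 0.11, adjusted p = 0.00199 in 1D5 minus FL and -0.34 ± 0.11, adjusted p = 0.00998 in 1KI9 minus FL, and it was negative and called under all 4 scalings (-0.77 to -0.44 and -0.73 to -0.34). NDUFAF5, the protein it partners, had differences of -0.01 and 0.07 that did not pass.

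Assembly factors held several of the larger day-4 differences. NDUFAF6 had 18.4, 16.5 and 19.3 in 1D5, 17.2, 19.8 and 20.1 in 1KI9 and 11.1, 11.8 and 12.6 in FL, with every GATA1s library above every FL library, and was higher by 0.57 ± 0.09, adjusted p = 1.53e-05 in 1D5 and 0.64 ± 0.09, adjusted p = 3.06e-06 in 1KI9. It was called under all 4 scalings in both clones. NDUFAF2 was higher by 0.51 in 1D5 and 0.64 in 1KI9, NDUFAF1 by 0.43 and 0.55, NDUFAF7 by 0.38 and 0.60, and NDUFAF4 by 0.42 and 0.49. With median-of-ratios scaling NDUFAF4 was not called in either clone (0.11 and 0.12). In 1D5 that scaling also ended the calls of NDUFAF2 (0.19), NDUFAF1 (0.12) and NDUFAF7 (0.09), which held in 1KI9. NDUFAF3 was higher by 0.51 in 1D5 and 0.46 in 1KI9, with neither called at 0.18 and 0.08 under median-of-ratios scaling.

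Among subunits, NDUFS5 of the ND2 module had 367, 410.2 and 364 in 1D5, 380.4, 382 and 356 in 1KI9 and 258, 257 and 239.6 in FL at day 4, with no overlap between GATA1s and FL. It was higher by 0.59 in 1D5 and 0.56 in 1KI9, although the 1KI9 call was lost with median-of-ratios scaling (0.18). NDUFC2-KCTD14 had 1.98, 2.31 and 3.30 in 1D5, 1.67, 1.67 and 1.51 in 1KI9 and 0.90, 1.16 and 0.62 in FL and was higher in 1D5 by 0.89 ± 0.25, adjusted p = 0.0043. It shares exons with NDUFC2 and lies near the filter, so its value is uncertain. NDUFA5 was lower in 1D5 than in FL (-0.13 ± 0.05, adjusted p = 0.0371), a call lost on leaving out any 1 of the 3 1D5 day-4 libraries or FL day-4 replicate 2 or 3. In 1KI9 the difference of NDUFA5 was 0.06 and did not pass, but it was called lower with median-of-ratios scaling (-0.32) and scaled to the summed members (-0.20).

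Few members were called between the GATA1s clones at day 4. In 1KI9 minus 1D5, 2 members were higher and 0 lower, where 12.5% of all genes were higher and 6.69% lower (19.2% called). NDUFB6 was higher by 0.24 ± 0.06, adjusted p = 0.00778 and NDUFA5 by 0.20 ± 0.05, adjusted p = 0.0176, and neither was called with median-of-ratios scaling (0.19 and 0.14). The NDUFA5 call was also lost scaled to the summed members (0.18) and without 1D5 day-4 replicate 1 or without 1KI9 day-4 replicate 2 or 3. The count of called members was 4 without FL expansion replicate 1 and 1 without 1D5 day-4 replicate 1, 1KI9 day-4 replicate 2 or 1KI9 day-4 replicate 3.

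In expansion fewer members were called against FL than at day 4. In 1D5 minus FL, 6 members were higher and 2 lower, where 18.7% of all genes were higher and 12.4% lower (31.1% called). NDUFA5 was higher, at 162, 154 and 165 in 1D5 and 122, 139 and 142 in FL (0.25 ± 0.05, adjusted p = 0.00161), and NDUFB5, a subunit of the ND4 module, was higher at 189, 198 and 193 in 1D5 and 168, 163 and 168 in FL (0.21 ± 0.05, adjusted p = 0.00367), both under all 4 scalings. NDUFA9 was lower (-0.21 ± 0.06, adjusted p = 0.0156), a call lost without 1D5 expansion replicate 2 or 3 or FL expansion replicate 2 or 3, with values from -0.20 to -0.18. NDUFB10, NDUFV2 and NDUFAF7 differed by 0.21, 0.19 and -0.25, and each call was lost in the fit to the compared libraries alone, which called 1 member in all, NDUFB5. Leaving out FL expansion replicate 1 gave 0.13 for both NDUFB10 and NDUFV2, neither called. The NDUFB10 call was also lost without 1D5 expansion replicate 1 (0.21) or 2 (0.15) and without several libraries that the comparison does not use. The NDUFAF7 call was lost without 1D5 expansion replicate 1 or 3 or FL expansion replicate 2 or 3, with values from -0.25 to -0.21. Median-of-ratios scaling ended the calls of NDUFB10 and NDUFV2. The count was 4 without 1D5 expansion replicate 1 and 5 without 1D5 expansion replicate 2 or FL expansion replicate 1. The median-of-ratios split was 2 higher and 3 lower, and without globin and mitochondrially encoded genes it was 10 and 1. Member and all-gene medians were 0.01 and -0.03 under the first of these scalings and 0.08 and 0.03 under the second.

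In 1KI9 minus FL in expansion, 10 members were higher and 8 lower, where 41.0% of all genes were higher and 18.5% lower (59.6% called). NDUFB5, at 233, 217 and 239.7 in 1KI9 and 168, 163 and 168 in FL, was higher by 0.46 ± 0.05, adjusted p = 3.76e-07. NDUFS5, at 774, 732 and 740.5 in 1KI9 and 504, 566 and 587 in FL, was higher by 0.44 ± 0.06, adjusted p = 8.91e-06. In both genes the groups did not overlap. NDUFB1 and NDUFA5 were higher by 0.36 and 0.33, and neither was called with median-of-ratios scaling (0.15 and 0.11). NDUFS6 and NDUFAF4 differed by -0.31 ± 0.07, adjusted p = 0.001 and -0.29 ± 0.07, adjusted p = 0.00231, and both were called lower under all 4 scalings. With median-of-ratios scaling 2 members were higher and 25 lower, with a member median of -0.19 beside an all-gene median of -0.06. Without globin and mitochondrially encoded genes 10 were higher and 11 lower, with medians of -3.4e-04 and 0.11 in the same order. The balance of directions therefore depends on the scaling.

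In 1KI9 minus 1D5 in expansion, 4 members were higher and 2 lower, where 33.4% of all genes were higher and 7.16% lower (40.6% called). NDUFS5, NDUFB1, NDUFB5 and NDUFAF1 were higher by 0.27, 0.27, 0.25 and 0.18, and none was called with median-of-ratios scaling. NDUFC1 and NDUFA6 differed by -0.26 and -0.19 and were called under all 4 scalings. The NDUFA6 call was lost on leaving out any of the 6 libraries compared but 1D5 replicate 3, the NDUFC1 call without 1D5 replicate 2 or 1KI9 replicate 1 or 3, and the NDUFAF1 call without any of the 6 but 1KI9 replicate 1. With median-of-ratios scaling 0 members were higher and 26 lower, with a member median of -0.21 beside an all-gene median of -0.05. Without globin and mitochondrially encoded genes 3 were higher and 14 lower, with medians of -0.09 and 0.07 in the same order. The count was 3 without 1D5 expansion replicate 2 and 9 without FL expansion replicate 2.

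Whether the change between conditions differed between clones was tested as an interaction. The interaction, in which the day-4 minus expansion difference of FL is subtracted from that of a GATA1s clone, was positive for 23 of 47 members and negative for 2 in 1D5, where it was positive for 44.7% and negative for 14.8% of all genes (59.5% called). In 1KI9 it was positive for 27 members and negative for 3, where it was positive for 40.0% and negative for 22.0% of all genes (62.1% called). The median-of-ratios split was 5 positive and 10 negative in 1D5 and 15 and 7 in 1KI9, and without globin and mitochondrially encoded genes it was 19 positive and 5 negative in 1D5 and 27 and 4 in 1KI9. The largest in 1KI9 was NDUFAF2 at 0.88 ± 0.14, adjusted p = 2.74e-05, followed by NDUFAF4 at 0.79, NDUFS8 at 0.76 and NDUFA9 at 0.75. In 1D5 NDUFS8 stood at 0.70 ± 0.09, adjusted p = 7.92e-06, NDUFAF7 at 0.64, NDUFAF2 at 0.61 and NDUFAF4 at 0.59. In each of these the day-4 minus expansion difference was more negative in FL. All were called under all 4 scalings except NDUFAF2 in 1D5 (0.32 with median-of-ratios scaling).

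NDUFA5 and NDUFAF8, chosen here after their values were seen, had negative interactions in both clones. NDUFA5 stood at -0.39 ± 0.08, adjusted p = 0.00037 in 1D5 and -0.26 ± 0.08, adjusted p = 0.00637 in 1KI9, and NDUFAF8 at -0.39 ± 0.16, adjusted p = 0.0403 in 1D5 and -0.43 ± 0.16, adjusted p = 0.0249 in 1KI9. Without FL expansion replicate 2 the NDUFAF8 values were -0.24 in 1D5 and -0.27 in 1KI9 and were not called. The 1D5 call was also lost without 1D5 expansion replicate 1 or 2, 1D5 day-4 replicate 1 or 3, or FL day-4 replicate 2 or 3, with values from -0.40 to -0.33. It was also lost with the replicate block, with no filter and in the fit to the compared libraries alone. The 1KI9 call was lost without 1KI9 expansion replicate 3 or FL day-4 replicate 2, at -0.40 each. NDUFC2-KCTD14 stood at 1.06 ± 0.36, adjusted p = 0.0169 in 1D5, and at 0.83, not called, without FL expansion replicate 2.

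The 7 mitochondrially encoded ND genes, which supply the proton-pumping core of the membrane arm, were tested beside the nuclear members. At day 4 all 7 were higher in 1D5 and in 1KI9 than in FL under all 4 scalings. On the deposited scale 54.8% of all genes were higher in 1D5 and 58.9% in 1KI9. The medians of the ND genes were 0.80 and 0.85 on that scale and 0.46 in both clones with median-of-ratios scaling. The lowest were MT-ND4 in 1D5, at 0.68 ± 0.09, adjusted p = 1.52e-06, and MT-ND3 in 1KI9, at 0.70 ± 0.09, adjusted p = 1.38e-06. MT-ND1 had 5887, 7189 and 6415 in 1D5, 6867, 7414 and 6694 in 1KI9 and 4129, 3705 and 3809 in FL at day 4, with every GATA1s library above every FL library. Between conditions 3 fell and 1 rose in 1D5, 2 fell and 2 rose in 1KI9, and all 7 fell in FL, where the median was -0.74. Of all genes, 47.0% fell and 31.9% rose in 1D5, 52.2% and 22.2% in 1KI9, and 57.2% and 26.5% in FL. Scaled to the summed members, 5 of the mitochondrially encoded ND genes were higher in 1D5, 6 in 1KI9 and 3 in FL. The all-gene medians on that scale were 0.40, 0.30 and 0.32 in the same order. MT-ND6 fell most, by 1.72 in 1D5, 1.54 in 1KI9 and 2.86 in FL. Its expansion libraries spread widely in the GATA1s clones, at 668, 324 and 600 in 1D5 and 814, 367 and 413 in 1KI9. In FL expansion they were 407, 430 and 471. MT-ND5 rose by 0.42 in 1D5 and 0.41 in 1KI9 and fell by 0.28 in FL. MT-ND5 and MT-ND6 lie on opposite strands of the same region, and no source used here states how strand was handled in counting.

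The ratio of summed ND to summed NDUF values cannot be altered by 1 factor per library, though the scaling of the day-4 values is unknown. It was 9.94 ± 0.0719 in 1D5, 10.2 ± 0.269 in 1KI9 and 6.99 ± 0.374 in FL at day 4, against 7.62 ± 0.158, 6.64 ± 0.643 and 6.76 ± 0.407 in expansion (SD, n = 3). The GATA1s and FL libraries did not overlap at day 4. In expansion 1KI9 and FL overlapped, while 1D5 lay above FL. With 3 libraries a side the smallest exact two-sided permutation p is 0.1.

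The 14 assembly factors without the NDUF prefix were also lower at day 4. Between conditions 11 fell in 1D5, 10 in 1KI9 and 14 in FL, where 47.0%, 52.2% and 57.2% of all genes fell. No factor rose in any clone, although scaled to the summed members 7 were higher and 5 lower in each GATA1s clone. FOXRED1, which acts late in assembly, had 20.9, 20.2 and 21.0 in 1D5, 23.9, 23.4 and 24.3 in 1KI9 and 17.4, 16.8 and 16.1 in FL at day 4, against 49.3, 50.8 and 46.2 in 1D5, 42.7, 43.3 and 46.6 in 1KI9 and 48.6, 51.2 and 53.5 in FL in expansion, and fell by 1.55 in FL. TMEM126B, a membrane-arm factor, fell by 1.29 in 1D5, 1.02 in 1KI9 and 1.44 in FL, and ECSIT, a member of the same assembly complex, by 1.60 in 1D5 and 1.39 in 1KI9. At day 4, 12 were higher and 1 lower in each GATA1s clone than in FL. Of all genes, 54.8% were higher and 16.3% lower in 1D5, and 58.9% and 17.5% in 1KI9. The median-of-ratios scaling turned the factor counts to 3 and 3 in 1D5 and 6 and 3 in 1KI9. AIFM1, needed for the import of respiratory chain subunits, was higher by 0.73 ± 0.06, adjusted p = 1.43e-08 in 1D5 and 0.93 ± 0.06, adjusted p = 3.86e-10 in 1KI9, and NUBPL, which supplies iron-sulfur clusters to complex I, by 0.82 ± 0.08, adjusted p = 2.29e-08 in 1KI9. ECSIT had 14.2, 15.5 and 12.9 in 1D5, 17.6, 14.8 and 13.3 in 1KI9 and 24.2, 23.1 and 22.0 in FL at day 4 and was the exception, with a difference of -0.67 ± 0.10, adjusted p = 1.07e-05 in 1D5 and -0.58 in 1KI9.

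Of the regulators of mitochondrial biogenesis, 5 of 6 fell between conditions in every clone, and PPARGC1A was not analysed here. The share of all genes that fell was 47.0% in 1D5, 52.2% in 1KI9 and 57.2% in FL. TFAM, which packages and transcribes mitochondrial DNA, had 17.8, 15.1 and 17.5 in 1D5, 20.4, 19.2 and 20.8 in 1KI9 and 13.7, 13.6 and 13.0 in FL at day 4, against 85.1, 80.9 and 76.1 in 1D5, 68.7, 82.2 and 77.1 in 1KI9 and 78.7, 104 and 101 in FL in expansion, and fell by 2.20 in 1D5, 1.86 in 1KI9 and 2.71 in FL. PPRC1 and PPARGC1B, coactivators, fell by 0.94 and 1.39 in 1D5, 0.77 and 1.22 in 1KI9, and 2.01 and 1.85 in FL, although PPARGC1B was low in every library (0.38 to 1.22 at day 4 and 3.41 to 4.87 in expansion). GABPA, the DNA-binding part of the ETS factor GABP, fell by 1.09, 0.92 and 1.27 in the same order, and NRF1 by 0.42, 0.40 and 0.70. ESRRA, a nuclear receptor, differed by 0.11, 0.03 and 0.17, which did not pass. At day 4, 4 of the 6 were higher in each GATA1s clone than in FL. Of all genes, 54.8% were higher in 1D5 and 58.9% in 1KI9. With median-of-ratios scaling the count of regulators was 1 in 1D5 and 3 in 1KI9. ESRRA differed by -0.20 in 1D5 and -0.28 in 1KI9, both called lower. None of these genes is among the 47 members.

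Nuclear genes of the other respiratory complexes were lower at day 4 too. Of all genes, 47.0% fell and 31.9% rose in 1D5, 52.2% and 22.2% in 1KI9, and 57.2% and 26.5% in FL. In complex II, 4 of 4 genes fell in every clone, and SDHB, the iron-sulfur subunit, fell by 1.36 in 1D5, 1.23 in 1KI9 and 1.70 in FL. In the nuclear genes of complex III, 8 of 9 fell in every clone and 1 rose in FL, with UQCRC2, a core protein of the complex, falling by 1.20 in both GATA1s clones and by 1.47 in FL. In complex IV 9 of 10 fell in each GATA1s clone and 10 of 10 in FL, and for ATP synthase 14 of 15 in each GATA1s clone and 15 of 15 in FL. The list medians of complexes II and III and of ATP synthase were below 0 under all 4 scalings, while that of complex IV was above 0 in every clone when scaled to the summed members. Coenzyme Q synthesis genes were split, with 5 falling and 6 rising in 1D5, 4 and 5 in 1KI9, and 8 and 4 in FL of 13; PDSS1, which makes the side chain of coenzyme Q, fell by 2.43, 2.12 and 2.68 in those clones.

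**Figure D5:**
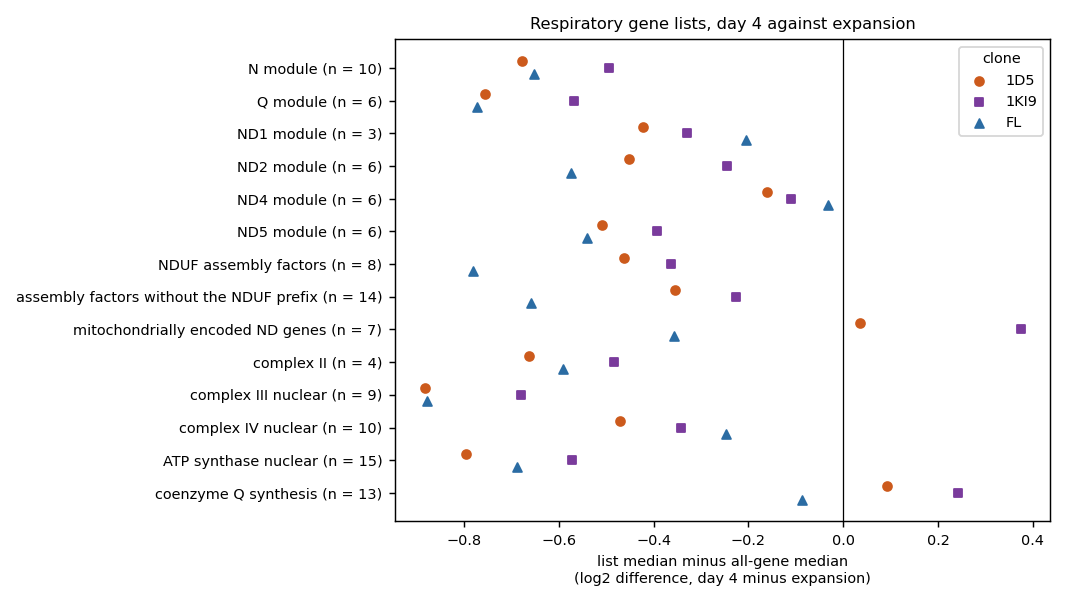
Median log2 difference, day 4 minus expansion, of complex I modules, assembly factors and other respiratory gene lists, relative to the median of all genes tested, in 1D5, 1KI9 and FL (points). The N and Q modules lie 0.50 to 0.77 below the all-gene median, the ND4 module 0.03 to 0.16 below it (above it in FL under the other 3 scalings), and the mitochondrially encoded ND genes from 0.36 below it in FL to 0.37 above it in 1KI9.

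The 47 members lie on 22 chromosomes, with 6 on chromosome 19 and 2 on chromosome X. Reads shared with other genes limit some of them. In the GENCODE annotation of GRCh38.p12, 59 pseudogenes carry NDUF names and 19 members have at least 1, with 12 each for NDUFA5 and NDUFB4, 6 for NDUFS5 and 4 for NDUFAF4. Of the members, 10 overlap a coding gene on their own strand and 26 overlap a gene on the other strand, among them NDUFA2, NDUFS1, NDUFB9 and NDUFAF7. No source used here states how counting divided such reads.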

How the data were processed

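Poly(A) RNA of 18 libraries was sequenced with a stranded kit, per the labels' protocols. The submitters' processing notes name Trim Galore 0.60, STAR 2.7 and RSEM 1.31, with GRCh38.p12. The authors deposited TPM per gene for expansion libraries (sums of 943734 to 950736). The deposited day-4 values were treated as a TPM-like signal, because their sums ran from 814583 to 1081251 and no source used here states their scaling. Read depth is therefore unknown, and so is how counting handled strand.

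The 11110 genes that reached 1 in 3 or more libraries were fitted on log2(value + 1) with limma 3.58.1 (R 4.3.3, trend, empirical Bayes), with 6 group means over all 18 libraries and Benjamini-Hochberg adjustment over all genes tested at 0.05. The 68 genes at 0 throughout expansion and the 27 at 0 throughout day 4 were left out of the comparisons that touch that condition. The unit of the day-4 values was not the TPM first assumed, and the same test was kept for both. Shares of all genes called are given on the deposited scale only.

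Named by rule were the core subunits, the assembly factors and NDUFA4, the 6 largest called clone differences, the 4 largest called day-4 differences and interactions, and the 3 highest and lowest members. NDUFA5, NDUFAF8, NDUFS8 and NDUFAF4 were set to be named in the day-4 clone differences and the interactions after their values were seen. 1 member is counted in sums and lists but is not reported by name here. The members and gene lists were chosen with earlier results of these data known. Alternatives were median-of-ratios scaling, removal of globin and mitochondrially encoded genes, a pseudocount of 0.1, no filter, only the compared libraries, a replicate block and leaving out each library. Scaling to the summed NDUF members was added after seeing the data. Gene positions came from GENCODE and promoter sequence from RefSeq. No libraries were identical, and within-group correlations across genes were 0.992 to 0.998.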

Additional observations from a re-analysis of the deposited data

Results flagged for a closer look

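The tested interaction called 25 of 47 members in 1D5 and 30 in 1KI9, where 59.5% and 62.1% of all genes tested were called. Members with the largest values are given here, together with NDUFA5, NDUFAF8, NDUFS8 and NDUFAF4, which were added after their values were seen. The interaction stands in log2 units with limma's test. In 1D5 it was -0.39 for NDUFA5, 0.61 for NDUFAF2, 0.59 for NDUFAF4, 0.64 for NDUFAF7, -0.39 for NDUFAF8, 0.70 for NDUFS8 and 1.06 for NDUFC2-KCTD14. In clone 1KI9 it was -0.26 for NDUFA5, 0.75 for NDUFA9, 0.88 for NDUFAF2, 0.79 for NDUFAF4, -0.43 for NDUFAF8 and 0.76 for NDUFS8. Both clones were set against the same FL libraries.

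The positive values belong to members whose day-4 minus expansion difference was more negative in FL, and the negative ones to members whose difference was more negative in the GATA1s clone. Those of NDUFAF8 in both clones and of NDUFC2-KCTD14 in 1D5 were not called without FL expansion replicate 2, and the 1D5 value of NDUFAF8 was not called with the replicate block. Globin share, CD68 and TPSB2 also differed between each GATA1s clone and FL at day 4. In 1KI9 expansion CD68 (130 to 189) and TPSB2 (61.15 to 80.68) already stood above FL expansion (3.57 to 5.42 and 2.01 to 3.48). The part of globin share, CD68, TPSB2 and clone in these values was not tested.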

How the results depend on the processing

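Counts of called members depended on the scaling. Between conditions, scaling to the summed members gave 14 higher and 19 lower in 1D5, 17 and 20 in 1KI9 and 14 and 22 in FL, against 0 and 39, 0 and 41, and 1 and 42 on the deposited scale. Of 104 differences of named members, the pseudocount of 0.1 kept 104, no filter 103, the replicate block 102, only the compared libraries 97, removal of globin and mitochondrially encoded genes 90, median-of-ratios scaling 79 and scaling to the summed members 78 with the same direction and call. Called members in 1D5 minus FL in expansion (8) were 5 with median-of-ratios scaling and 1 with only the compared libraries; in 1KI9 minus 1D5 in expansion (6) they were 26 with median-of-ratios scaling and 17 without globin and mitochondrially encoded genes. At day 4 the count with median-of-ratios scaling was 17 in 1D5 minus FL (36), 23 in 1KI9 minus FL (35) and 0 in 1KI9 minus 1D5 (2), where it was 1 under the summed-member scaling and 4 without globin and mitochondrially encoded genes; the summed-member scaling gave 23 and 22 in the first pair. The 1D5 interaction count (25) was 15 with median-of-ratios scaling. The cause was not tested.

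Leaving out each library gave 4 to 10, 15 to 18 and 3 to 9 called members in expansion (1D5 minus FL, 1KI9 minus FL, 1KI9 minus 1D5), 29 to 37, 32 to 37 and 1 to 4 at day 4, 38 to 42, 41 to 42 and 42 to 44 between conditions in 1D5, 1KI9 and FL, and 21 to 28 and 23 to 35 for the interactions of 1D5 and 1KI9.

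Among these named differences signs turned as follows, in log2 units; members outside them, such as NDUFB11 and NDUFA2, turned too, with values in the results above. With median-of-ratios scaling NDUFA5 was -0.32 in 1KI9 minus FL at day 4, and between conditions NDUFAF3 was 0.0584 and NDUFAF8 0.40 in FL and NDUFS8 0.23 in 1KI9. Without globin and mitochondrially encoded genes NDUFAF8 was 0.31 in FL and NDUFS8 0.18 in 1D5 and 0.29 in 1KI9. Scaled to the summed members, NDUFA5 was -0.20 in 1KI9 minus FL at day 4. Between conditions that scaling gave, in 1D5, 0.26 for NDUFAF1, 0.022 for NDUFAF6, 0.16 for NDUFAF8 and 0.50 for NDUFS8; in 1KI9, 0.18 for NDUFAF1, 0.0365 for NDUFAF7, 0.11 for NDUFAF8, 0.12 for NDUFS7 and 0.54 for NDUFS8; and in FL, 0.0186 for NDUFAF1, 0.42 for NDUFAF3, 0.76 for NDUFAF8, 3e-04 for NDUFS8 and 0.0893 for NDUFV2.

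Deviations of same-numbered libraries from their group means correlated at -0.15 to 0.43, with 10 of 45 correlations over 0.1. The highest were 0.43 and 0.27, between 1D5 and 1KI9 day-4 replicates 2 and 3. Differently numbered libraries were not compared, so this check cannot tell whether the numbers pair libraries. With the replicate block the called members numbered 8, 17 and 8 in expansion, 38, 37 and 2 at day 4, 40, 41 and 43 between conditions in 1D5, 1KI9 and FL, and 26 and 30 for the interactions. It ended the NDUFAF8 call in the 1D5 interaction and called NDUFS8 between conditions in 1D5. The labels do not say that libraries came from separate cultures, FL is 1 clone, and unknown depth leaves no counting error for low members such as NDUFC2-KCTD14.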
